A study of Homo sapiens with 3 samples.

Results

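Interferon-high cells were cells of a Caco-2 and HT29 co-culture that carried many transcripts of interferon-induced genes. They were selected on 5 or more UMIs (unique molecular identifiers, each marking 1 captured RNA molecule) summed over the 9 genes IFI44L, IFIT1, IFIT2, IFIT3, MX1, MX2, OAS2, RSAD2 and SAMD9, in cells with at least 1500 UMIs, at least 700 genes and at most 20% mitochondrial UMIs. By this rule 134 of 15560 kept cells were interferon-high, 25 in control 1, 19 in control 2 and 90 in the LPS library. Cells were called HT29-like when at least 0.1% of their UMIs fell on the 8 genes LYZ, KRT20, LCN2, CD24, CD44, CST6, TCN1 and BMP4, and Caco-2-like otherwise. Of the interferon-high cells, 112 were HT29-like and 22 were Caco-2-like. The proposed label of interferon-responding cells rests on IFIT1, IFIT2, IFIT3, MX1 and RSAD2, all of which are in the rule, so the check of the label came from genes outside it, of which ISG15 is described first.

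Interferons are secreted proteins that warn cells of infection. Type I interferons act through IFNAR1 and IFNAR2, and lambda interferons, which act mainly on epithelia such as the gut lining, act through IFNLR1 and IL10RB. Both receptors signal through JAK kinases to a complex of STAT proteins and IRF9, which binds the interferon-stimulated response element in front of antiviral genes. The IFIT proteins bind viral RNA, the MX proteins trap viral particles, OAS enzymes start the decay of viral RNA, and RSAD2 (viperin) makes a nucleotide that stops viral polymerases.

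Both lines are colorectal cancer cells. Caco-2 and HT29 were seeded 9 to 1 on 3 germ-free Transwell inserts, 2 of which stayed untreated (control 1 and control 2) and 1 of which received 1 ng/ml lipopolysaccharide (LPS) of E. coli O111:B4 in the apical chamber from day 22 for 24 h. All were trypsinized on day 23, thawed before capture, passed through dead cell removal where viability was low (in which libraries the labels do not say) and sequenced with a 10x Genomics 3′ kit. Control 1 held 5811 barcodes with 33893707 UMIs (5093 kept, median 5496 UMIs), control 2 held 6495 with 27934953 (5307 kept, median 4196) and the LPS library held 6838 with 24185467 (5160 kept, median 3676). The LPS treatment is 1 Transwell and 1 library, so treatment and library cannot be told apart, and no test between LPS and control was made. Pairs of libraries shared 9, 9 and 11 cell barcodes, none with the same counts, and 2 of the interferon-high cells, both in the LPS library, carried such a barcode.

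Interferon-high cells were most frequent in the LPS library and among HT29-like cells. Among HT29-like cells they made up 19 of 804 in control 1, or 2.36% (exact binomial 95% interval 1.43% to 3.67%). In control 2 they made up 17 of 1091, or 1.56% (0.910% to 2.48%). In the LPS library they made up 76 of 931, or 8.16% (6.49% to 10.1%). The LPS share was 4.16 times the mean of both controls, and its interval did not overlap theirs. The ratio was 2.10 at a minimum of 3 UMIs of the 9 genes and 5.22 at a minimum of 10. These intervals cover counting error only and not the spread between Transwells. Because the controls were sequenced more deeply per cell, every cell was also thinned to 1500 UMIs and called at 2 or more UMIs of the 9 genes, which left no kept cell out and gave a share of 8.59% of HT29-like cells in the LPS library against a control mean of 2.28%, a ratio of 3.76.

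Among Caco-2-like cells the shares were lower, at 6 of 4289 in control 1, 2 of 4216 in control 2 (0.0474%) and 14 of 4229 in the LPS library (0.331%). The LPS interval of 0.181% to 0.555% overlapped that of control 1, which was 0.0514% to 0.304%, and lay above that of control 2, which was 0.00575% to 0.171%. HT29-like cells were 76.0%, 89.5% and 84.4% of the interferon-high cells of control 1, control 2 and the LPS library, against 15.5%, 20.3% and 16.9% of the other kept cells. In no library did the exact intervals of these shares overlap, the lowest bound among interferon-high cells being 54.9%.

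**Figure D1:**
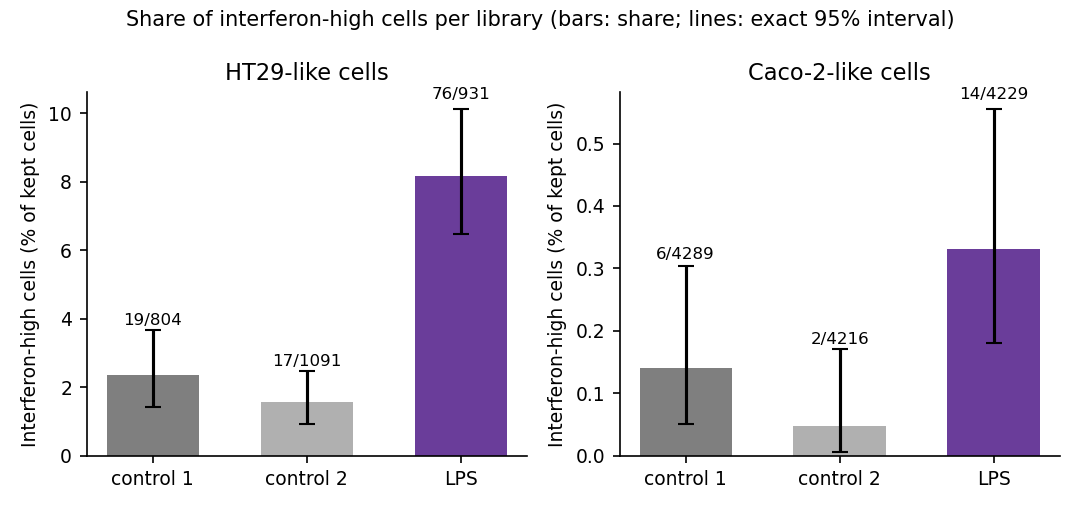
Share of interferon-high cells (y axis, percent of kept cells) in control 1, control 2 and the LPS library, for HT29-like (left) and Caco-2-like cells (right, another scale). Bars are shares, lines are exact binomial 95% intervals and the numbers are interferon-high cells over kept cells, with the LPS bar highest in both panels at 8.16% and 0.331%.

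Interferon-high HT29-like cells differed somewhat from the other HT29-like cells in depth and in mitochondrial share. Their median UMIs were 6950, 4519 and 5540.5 in control 1, control 2 and the LPS library, against 5472, 3865.5 and 3676 in the others. A minimum set in UMIs is met more easily by deeper cells, so the depth of the members depends on the rule. With 0.1% of UMIs (and 3 or more) as the minimum, the medians were 5569.5, 3973 and 4554.5 against 5519.5, 3867.5 and 3749. Their median mitochondrial share was 2.84%, 2.70% and 5.60%, against 3.02% to 3.60% in the others, so it was higher than in the other cells in the LPS library alone. The Caco-2-like members of control 1 stood apart in depth, with a median of 16045 UMIs against 5486 in the other Caco-2-like cells. At 0.1% of UMIs 1 Caco-2-like cell of that library was called. With a mitochondrial limit of 10% the LPS share of HT29-like cells was 3.89 times the control mean, and with no limit it was 4.16 times that mean.

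The rule cuts a continuous range. HT29-like cells with 3, 4, 5 and 6 UMIs of the 9 genes numbered 58, 36, 14 and 6 over the 3 libraries, with medians of 4.51 and 8.49 UMIs of these genes per 10000 just outside the minimum and 11.7 and 8.19 just inside it. The median interferon-high cell carried 8 such UMIs in control 1, 9 in control 2 and 10 in the LPS library, and the highest cells carried 52, 69 and 119. Cells with 20 or more numbered 2, 3 and 23. Most members carried several of the genes, 82 of the 134 having UMIs of 5 or more of them and 1 having UMIs of SAMD9 alone. HT29-like members held 39.3%, 44.8% and 80.7% of all UMIs of the 9 genes found in HT29-like cells of the respective library, so in the LPS library most of these transcripts sat in 8.16% of the HT29-like cells.

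**Figure D2:**
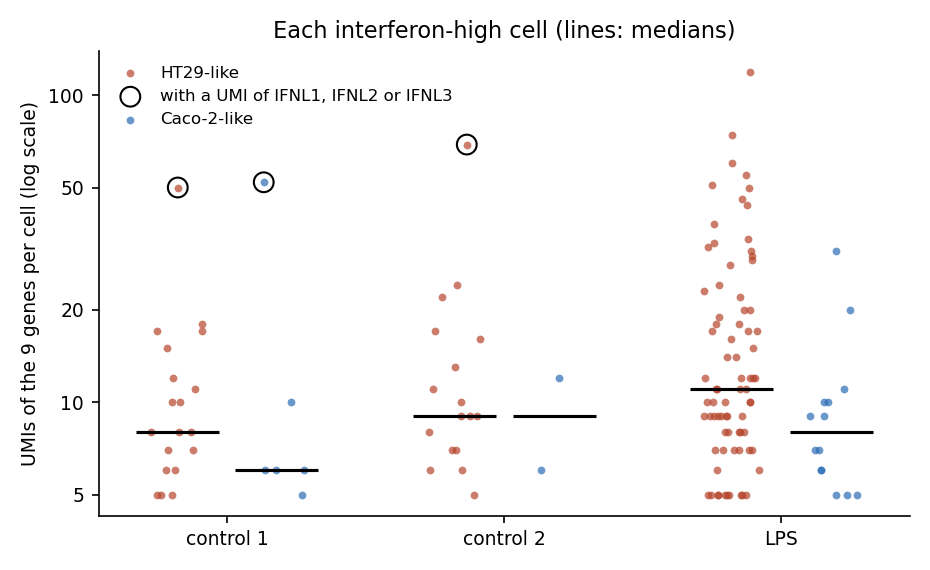
UMIs of the 9 genes in each interferon-high cell (y axis, log scale) by library, HT29-like cells in red and Caco-2-like cells in blue, with horizontal lines at the medians. Black circles mark the 3 cells with a UMI of IFNL1, IFNL2 or IFNL3, which carried 50, 52 and 69 UMIs of the 9 genes.

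The levels of the 9 genes chose the members and are given as a description. Summed over the 9 genes, HT29-like members reached 1698 CPM (UMIs scaled to a common total per group of summed cells) in control 1, 2268 in control 2 and 2921 in the LPS library, against 68.8, 62.6 and 92.1 in the other HT29-like cells. The other Caco-2-like cells were at 11.4, 17.1 and 18.3 CPM. The gap between lines outside the rule varied by gene. SAMD9 was at 25.9, 14.5 and 21.7 CPM in HT29-like against 1.29, 1.56 and 1.87 in Caco-2-like cells. IFIT2 was at 1.58, 2.25 and 2.47 against 1.76, 2.39 and 2.09. IFIT1, an RNA-binding antiviral protein, stood at 324 (control 1), 585 (control 2) and 585 CPM (LPS) in the members and at 9.49, 11.0 and 18.7 in the others. UMIs of IFIT1 were found in 73.7%, 82.4% and 81.6% of the members and in 5.10%, 4.75% and 7.13% of the other HT29-like cells. In Caco-2-like cells outside the rule, with median depths of 5486, 4272 and 3639 UMIs, 1.12%, 2.18% and 1.97% had one. RSAD2 was the least abundant of the 9 in the members, at 37.7, 36.6 and 144 CPM. IFIT2 was uneven between cells, since 18 of its 20 UMIs in the HT29-like members of control 1 came from 1 cell. Over all interferon-high cells the 3 IFIT genes together gave 49.7%, 54.1% and 49.3% of the UMIs of the rule, and MX1 with MX2 gave 18.1%, 21.4% and 21.5%.

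Promoters of the 9 genes are shown because the response element bound by this complex is a defining part of interferon-induced genes. RefSeq promoters (GRCh38.p14, 250 bases before to 50 after the start of each gene) were matched by symbol for 6 of the 9, and IFIT2, MX2 and OAS2 were not matched. The core of the element, GAAANNGAAA on either strand, was found in 5 of these 6, against 3.57% of all 35116 promoters of that table. Stretches before the start are printed 5′ to 3′ on the strand of the gene, with capitals for the core, which reads as runs of TTTC where it lies on the opposite strand.
IFI44L, chr1:78620360-78620399, + strand: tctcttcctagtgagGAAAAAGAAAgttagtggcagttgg
IFIT1, chr10:89392505-89392544, + strand: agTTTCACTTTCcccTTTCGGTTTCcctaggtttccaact
IFIT3, chr10:89327860-89327899, + strand: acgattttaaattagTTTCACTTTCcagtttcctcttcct
SAMD9, chr7:93118091-93118130, - strand: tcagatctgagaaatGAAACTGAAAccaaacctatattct
MX1 had its match after the start and is not printed, and the RSAD2 window held none. The matches are descriptions of these letters and not evidence of binding.

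ISG15, a ubiquitin-like protein that is attached to other proteins after interferon, was not part of the rule and rose strongly in the interferon-high cells. In HT29-like members it stood at 3320 CPM in control 1, 4555 in control 2 and 4282 in the LPS library (4052 ± 648, SD, n = 3 libraries), against 436, 391 and 421 in the other HT29-like cells (416 ± 22.5). Each of the 3 libraries was far higher in its members, and the groups did not overlap. The difference was 3.20 ± 0.14 on the log2 scale (SE; edgeR adjusted p = 3.77e-118). UMIs of ISG15 were found in 100% of the members and in 68.5%, 60.3% and 58.5% of the other HT29-like cells. ISG15 (ENSG00000187608) lies at chr1:1001138-1014540 (GRCh38, GENCODE 44, + strand), and the RefSeq start used for its promoter lies within that span. The promoter holds overlapping matches of the core.
ISG15, chr1:1013375-1013414, + strand: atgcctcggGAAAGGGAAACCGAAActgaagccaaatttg

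ISG15 was not confined to cells past the minimum. In HT29-like cells with 0, 1 and 2 UMIs of the 9 genes it stood at 281, 478 and 947 CPM in control 1, at 291, 550 and 1134 in control 2 and at 241, 678 and 904 in the LPS library. Each library rose from 0 to 2 such UMIs, and in cells with 0 of them the LPS library was the lowest of the 3. With 3 and 4 such UMIs control 2 was lower than with 2, at 725 and 1091 CPM. Control 1 was then at 1174 and 2532 CPM and the LPS library at 1042 and 1859. The members of the LPS library held 57.2% of all ISG15 UMIs of HT29-like cells, against 16.6% in control 1 and 20.7% in control 2. Over all HT29-like cells ISG15 was 509 CPM in control 1, 482 in control 2 and 869 in the LPS library, while outside the members it was 391 to 436 CPM.

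**Figure D3:**
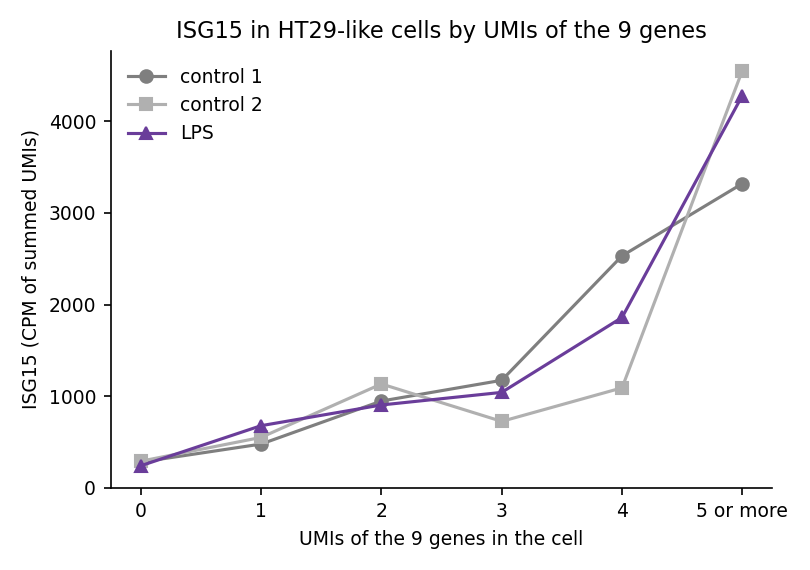
ISG15 level (y axis, CPM of UMIs summed over cells) in HT29-like cells with 0, 1, 2, 3, 4 and 5 or more UMIs of the 9 genes (x axis), one line per library. Levels start at 241 to 291 CPM with 0 UMIs and reach 3320 to 4555 with 5 or more.

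Genes outside the rule were tested in HT29-like cells by summing the UMIs of interferon-high and of other cells within each library and fitting edgeR's quasi-likelihood test to the 3 libraries with library as a term. The members and the tested genes come from the same cells. The filter on low counts could be passed through the members alone, so some low genes were tested only because the members held them. Of 10350 genes tested, 126 rose (1.22% of those tested) and 62 fell (0.599%) in the interferon-high cells at an adjusted p under 0.05. DESeq2 on the same sums called 77 higher and 8 lower. With a filter of 10 CPM over all HT29-like cells instead, which does not look at the class, 8117 genes were tested. Of these, 111 rose and 45 fell. Of the edgeR calls, 110 and 56 moved the same way in every library. Of the 126 that rose, 71 belonged to the gene lists used here, and of the 62 that fell, 4 did. The median log2 fold change of all genes tested was -0.06.

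Of the antiviral effectors 43 of 46 tested genes of the list rose and 0 fell (median log2 fold change 2.12, against -0.06 over all genes). With a filter of 10 CPM over all HT29-like cells 34 of 37 rose, and with no filter on low counts 44 of 52 did. Without the LPS library 25 of the 43 kept the call, of 39 that could be tested. OASL, an OAS-like protein that aids RNA sensing, had 128 (control 1), 503 (control 2) and 142 CPM (LPS) in the members and 6.13, 5.11 and 6.59 in the others (log2 fold change 5.16 ± 0.28, edgeR adjusted p = 3.14e-72). The high value of control 2 came largely from 1 cell, which held 61.8% of its OASL UMIs, and without that cell it was 203 CPM. In control 1 the highest cell held 64.7%, and without it the level was 48.6 CPM. OAS1, which makes the messenger that activates RNase L, was at 196, 439 and 278 CPM against 51.4, 38.0 and 45.1. OAS3 was at 128, 165 and 176 CPM against 13.2, 10.6 and 13.7. Every one of these libraries had the higher level in the members.

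IFI27 and IFI6, small membrane proteins of one family, were abundant in all HT29-like cells and rose by less. IFI27 stood at 2385, 3311 and 3103 CPM in the members of control 1, control 2 and the LPS library, against 890, 965 and 1041 in the others (log2 fold change 1.52 ± 0.13). IFI6 stood at 792, 2259 and 1354 CPM against 321, 421 and 431 (1.73 ± 0.14). Both passed the test in edgeR, with adjusted p = 5.09e-29 and 1.14e-31. IFI44 was at 158, 256 and 184 CPM against 18.2, 17.8 and 20.1. DDX60, a helicase that helps to sense viral RNA, was at 226, 146 and 109 CPM against 3.16, 4.30 and 8.79, and 73.3% of its UMIs in the members of control 1 came from 1 cell. IFITM3, which blocks viral entry (its reads can be shared with IFITM1 and IFITM2), was at 143, 366 and 349 CPM against 32.8, 36.4 and 35.4. The RNA-dependent kinase EIF2AK2 was at 174, 366 and 219 CPM against 43.1, 48.9 and 60.5. In each of these the lowest library of members lay above the highest library of other cells.

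The 10 genes with the largest rise that moved the same way in every library were TRIM22, XAF1, OASL, CMPK2, RTP4, DDX60, EPSTI1, HERC5, SAMD9L and TRANK1, with log2 fold changes from 3.71 to 5.66. Several rested on few UMIs. TRIM22, a restriction factor of viruses, had 1, 3 and 12 UMIs in the members of control 1, control 2 and the LPS library, and RTP4, a chaperone of receptors, had 2, 3 and 4. XAF1, which promotes cell death, had 2, 3 and 30. Without the LPS library the SAMD9L call ended although its log2 fold change was 4.45, against 3.76 with all 3 libraries, and TRIM22, XAF1, CMPK2 and TRANK1 were too low to be tested. RTP4 and HERC5 were too low to be tested when any 1 library was left out. OASL, DDX60 and EPSTI1 passed without each library in turn. The log2 fold change of OASL was 4.36 without control 2, and that of DDX60 was 4.06 without control 1 and 5.52 without the LPS library. The only one of the 10 outside the lists was TRANK1. SHISA5, TRIM14 and TRIM56 were the 3 tested antiviral effectors that did not pass, and IFI16, IFITM1, SAMHD1, APOBEC3F, APOBEC3G and TMEM140 were too low to be tested.

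Promoters of 3 further effectors are printed, since they held the same core as the genes of the rule. Of the 126 genes that rose, 96 had a RefSeq promoter and 36 of these held the core (37.5%), and of the 49 promoters of genes that fell, 0 held it, against 3.57% of all promoters.
DDX60, chr4:168318781-168318820, - strand: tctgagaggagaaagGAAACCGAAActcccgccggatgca
IFI27, chr14:94110626-94110665, + strand: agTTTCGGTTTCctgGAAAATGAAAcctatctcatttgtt
IFI44, chr1:78649756-78649788, + strand: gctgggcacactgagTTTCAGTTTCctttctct

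Genes of the ISG15 conjugation list rose, 5 of 5 tested, a count that includes ISG15 itself. The others were UBE2L6 and HERC5, which attach ISG15, HERC6, a relative of HERC5, and USP18, which removes it. UBE2L6, the enzyme that carries ISG15, was at 37.7, 27.4 and 54.3 CPM in the members against 9.29, 10.6 and 14.6. USP18, a protease that also damps the type I receptor, was at 75.5, 54.9 and 79.4 CPM against 4.74, 5.73 and 7.14 (log2 fold change 3.50 ± 0.39, edgeR adjusted p = 5.74e-17). Without the LPS library UBE2L6 and HERC6 did not pass, with log2 fold changes of 1.61 and 2.46. UBA7, the activating enzyme, was too low to be tested, with 1, 1 and 5 UMIs in the members. With a filter of 10 CPM over all HT29-like cells, 2 of 2 tested genes of the list rose. With no filter on low counts 6 of 6 did.

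**Figure D4:**
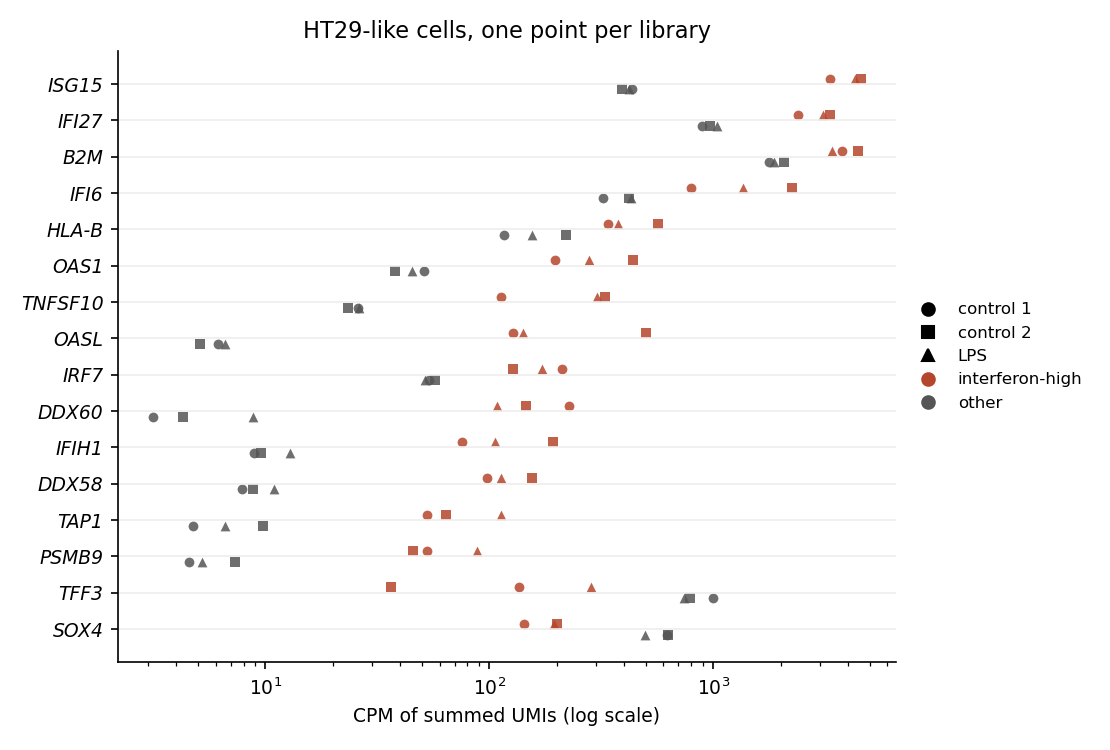
Levels (x axis, CPM of UMIs summed over cells, log scale) of 16 genes in interferon-high (red) and other (grey) HT29-like cells, one point per library (circle control 1, square control 2, triangle LPS). For the first 14 genes all red points lie to the right of all grey points, and for TFF3 and SOX4 all lie to the left.

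Among the sensors of viral RNA, the cytosolic helicases DDX58 (RIG-I), IFIH1 (MDA5) and DHX58 rose, 3 of 9 tested genes of the list, with 0 lower. DDX58 was at 98.1, 155 and 113 CPM against 7.91, 8.80 and 11.0 (log2 fold change 3.58 ± 0.31, edgeR adjusted p = 1.84e-27). IFIH1 was at 75.5, 192 and 107 CPM against 8.89, 9.61 and 12.9, and in control 2 1 cell held 57.1% of its UMIs, without which it was at 87.1 CPM. DHX58 did not pass without the LPS library (log2 fold change 2.84). The other sensors and adaptors tested, CGAS, IRF3, MAVS, TBK1, TICAM1 and TMEM173 (STING), did not pass. TLR3, a sensor of double-stranded RNA in endosomes, had 0, 1 and 1 UMIs in the members and was not tested.

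In the signalling chain 4 of 9 tested genes of the list rose, with 0 lower, among them STAT2, IRF1 and IRF7. IRF7, which drives interferon genes, was at 211, 128 and 171 CPM against 53.8, 57.3 and 51.9. STAT2 was less even, at 22.6, 9.15 and 71.0 CPM against 11.9, 13.1 and 17.9, and it was lower in the members of control 2, where it rested on 1 UMI. Without the LPS library STAT2 did not pass (log2 fold change 0.29), and IRF1 did not pass without that library (1.22) or without control 1 (1.25). IRF9, the partner of STAT2, had 1, 0 and 4 UMIs in the members and did not pass (edgeR adjusted p = 0.993). Of the feedback inhibitors, 1 of 4 tested genes rose, which was USP18.

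Transcripts of interferon receptors did not pass, 0 of 4 tested genes being higher or lower. IFNAR1 was at 37.7, 9.15 and 39.7 CPM in the members and at 33.2, 35.6 and 32.7 in the others (log2 fold change -0.04 ± 0.36, edgeR adjusted p = 0.999). IFNLR1, the receptor chain specific to lambda interferons, had 1, 0 and 3 UMIs in the members and was not tested. Of the genes of LPS recognition, MYD88, an adaptor of Toll-like and interleukin-1 receptors, rose, at 15.1, 36.6 and 46.0 CPM against 11.3, 9.00 and 9.62 (log2 fold change 1.83 ± 0.43, edgeR adjusted p = 0.00220), and CD14 did not pass. MYD88 did not pass without the LPS library (1.17). The LPS receptor TLR4 was not detected in the 112 HT29-like members, which allows a share of cells with a UMI of up to 2.68%, and had 4, 1 and 1 UMIs in the other HT29-like cells. Its partner LY96 and the receptors TLR2 and TLR5 were also at 0 UMIs in these members.

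Interferon transcripts were rare, and most UMIs of the lambda interferons sat in 3 members of the controls. Over all kept cells 12 UMIs of IFNL1, IFNL2 and IFNL3 were counted in 7 cells, of which 8 UMIs were in 3 interferon-high cells. In control 1 these were the cells that ranked 1 and 2 in UMIs of the 9 genes, a Caco-2-like cell with 52 (2 lambda UMIs) and an HT29-like cell with 50 (1 lambda UMI). In control 2 it was the cell that ranked 1, an HT29-like cell with 69, which held 5 lambda UMIs and also all 13 UMIs of the chemokine CXCL10 found in the kept cells of that library. In control 1 the members had 0 CXCL10 UMIs and the other cells 11, and in the LPS library the members had 0 and the other cells 1. The remaining 4 lambda UMIs were in 4 Caco-2-like cells, each with 0 UMIs of the 9 genes. In the LPS library 0 of the 90 interferon-high cells had a lambda UMI, which allows a share of up to 3.33%. The 3 IFIT genes gave 84.6%, 96.0% and 84.1% of the UMIs of the rule in the 3 cells, against a median of 28.6%, 33.3% and 44.4% over the members of control 1, control 2 and the LPS library. A high IFIT share was not particular to these 3 cells. All 22 rule UMIs of 1 HT29-like cell of control 2 and all 8 of 1 of the LPS library were of IFIT genes, without a lambda UMI. No UMI of IFNB1 was found in an interferon-high cell, and 1 was found in another HT29-like cell of control 1. IFNE, an interferon of epithelia, had 0 UMIs in the members, 9, 4 and 3 in the other HT29-like cells and 2, 1 and 1 in the other Caco-2-like cells, where 1 UMI of IFNA1 was also found in control 1.

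Genes of antigen presentation by MHC class I rose in part, 9 of 17 tested genes being higher and 0 lower (median log2 fold change 0.85). The peptide transporter TAP1 was at 52.8, 64.0 and 113 CPM in the members against 4.74, 9.82 and 6.59, and the immunoproteasome subunit PSMB9 was at 52.8, 45.7 and 87.8 against 4.55, 7.36 and 5.22 (log2 fold change 3.52 for both, with SE 0.35 and 0.39 and edgeR adjusted p = 1.23e-20 and 7.57e-17). B2M, the invariant chain, was at 3743, 4427 and 3389 CPM against 1784, 2067 and 1878 (0.93 ± 0.12). HLA-B was at 340, 567 and 374 CPM against 117, 219 and 156 (1.30 ± 0.17). HLA-C, HLA-E, HLA-F, PSMB8 and TAP2 rose as well, of which HLA-E, HLA-F and TAP2 did not pass without the LPS library (log2 fold changes 0.84, 1.38 and 1.43). Reads of HLA genes can be shared between members of the family.

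Of the genes known mainly from the response to interferon gamma 0 of 4 tested passed, and of the genes of NF-κB and chemokines 1 of 14 did. It was CXCL8, a chemokine for neutrophils, at 241, 0 and 14.6 CPM against 9.68, 6.14 and 3.57 (log2 fold change 3.41 ± 0.42, edgeR adjusted p = 1.08e-13), and 29 of its 39 UMIs in the members came from 1 cell of control 1. Without that library CXCL8 did not pass (1.36). Among the genes of stress and death 3 of 19 rose. TNFSF10 (TRAIL), a death ligand, was at 113, 329 and 303 CPM against 25.9, 23.3 and 26.1 (3.23 ± 0.22, edgeR adjusted p = 2.16e-45). In control 2 1 cell held 22 of the 36 TNFSF10 UMIs, and without it the level was 135 CPM. CASP1, the protease of inflammasomes, was at 22.6, 18.3 and 8.36 CPM against 0.988, 0.409 and 1.65, on 9 UMIs in all. CASP1 passed the filter on low counts through the members alone, so its call is no independent result. With a filter of 10 CPM over all HT29-like cells 2 of 18 tested genes of the list rose. CDKN1A (p21) was at 241, 357 and 249 CPM against 146, 199 and 169, and without its highest cell control 2 was at 184, below the other cells. Leaving out any 1 library ended the call of CDKN1A (log2 fold changes 0.59, 0.58 and 0.66 without control 1, control 2 and LPS), and leaving out control 2 ended that of CASP1, which was too low to be tested without control 1 or without LPS. No gene of the cell cycle list passed, 0 of 11 tested.

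**Figure D5:**
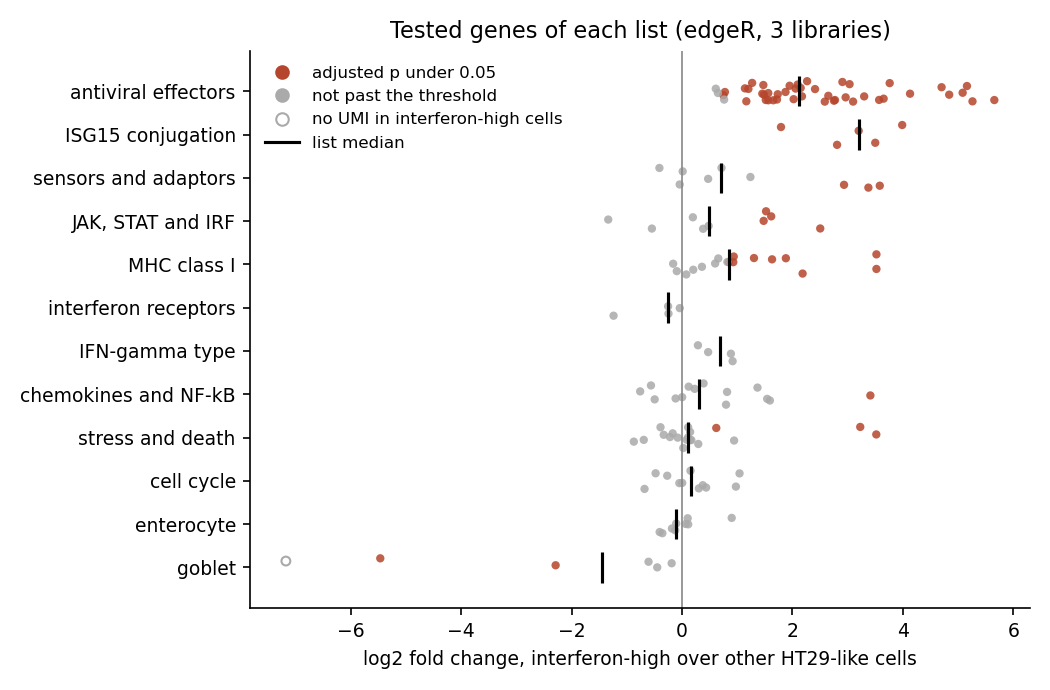
Log2 fold change of interferon-high over other HT29-like cells (x axis) for each tested gene of 12 lists, red where the edgeR adjusted p was under 0.05 and grey otherwise, with a black line at the list median. Antiviral effectors have 43 of 46 genes in red, and the open circle among the goblet genes is MUC2, which had no UMI in the interferon-high cells, so that its position is not a measured fold.

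Of the goblet cell markers 2 of 6 tested genes fell in the interferon-high cells, TFF3 and FCGBP, and 0 rose. TFF3, a peptide that protects the mucosa, was at 136, 36.6 and 284 CPM in the members of control 1, control 2 and the LPS library against 995, 789 and 744 in the others (log2 fold change -2.29 ± 0.18, edgeR adjusted p = 1.21e-35). TFF3 was lower in every library but did not pass in DESeq2 (-2.84), and its log2 fold change was -3.47 without the LPS library. In the members of control 1, 14 of its 18 UMIs came from 1 cell. FCGBP, a component of mucus, was at 0, 0 and 2.09 CPM against 101, 46.0 and 54.4. MUC2, the main gel-forming mucin, was at 0 in all members and did not pass (edgeR adjusted p = 0.170), and AGR2, which folds mucins, was at 694, 1088 and 754 CPM against 913, 1132 and 1168 (edgeR adjusted p = 0.0661). MUC5AC, a mucin, was at 30.2, 36.6 and 85.7 CPM against 62.3, 73.4 and 110 (edgeR adjusted p = 0.412), and SPDEF, a transcription factor of goblet cells, was at 67.9, 27.4 and 50.2 CPM against 49.4, 50.5 and 58.8 (edgeR adjusted p = 0.992). The median log2 fold change of the list was -1.45, or -0.74 with MUC2 at the bound that 3 counts allow. The median cell among the members had 6.45, 6.28 and 7.68 UMIs of the 7 goblet genes per 10000, against 9.36, 12.1 and 13.2 in the others.

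Outside the lists, the trypsinogen PRSS2 had 0 UMIs in all HT29-like members, against 216, 80.4 and 113 CPM in the other HT29-like cells of control 1, control 2 and the LPS library, where 9.17%, 6.05% and 7.84% of the cells had one. It was at least 30.6-fold lower, with a floor of 3 counts over the members against the UMIs expected at the level of the other cells of each library (edgeR adjusted p = 3.04e-29). Its near copy PRSS1, with which it can share reads, was at 7.55, 18.3 and 0 CPM against 83.4, 45.2 and 51.1. KLK12 and ALCAM were also at 0 in the members and at least 6.08-fold and 2.83-fold lower. LINC00261, REG4, ENDOG and SLITRK6 were also among the 10 largest falls. Calls of ALCAM and LINC00261 ended when any 1 library was left out, and those of KLK12, REG4, ENDOG and SLITRK6 without the LPS library. The log2 fold changes of REG4, ENDOG and SLITRK6 were then -2.58, -2.65 and -1.63, against -2.90, -2.64 and -2.44 with all 3. The call of REG4 also ended without control 1 (-2.51) and that of ENDOG without control 2 (-2.39). SOX4, a transcription factor of progenitors, was at 143, 201 and 194 CPM against 624, 629 and 494 (log2 fold change -1.69 ± 0.18, edgeR adjusted p = 8.34e-19), and HES6, a transcription factor of the HES family, was at 0, 0 and 43.9 CPM against 136, 98.0 and 95.6. HES6 in the LPS library had 12 of its 21 UMIs in 1 cell. The glycolytic enzyme GAPDH was at 4445, 3475 and 3274 CPM against 5289, 5753 and 4937, and did not pass without the LPS library (log2 fold change -0.61). NDRG1 was lower in the members of the LPS library alone, at 951, 1546 and 313 CPM against 791, 1539 and 1182, and its log2 fold change of -0.63 became 0.0061 without that library.

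Genes outside the lists also rose. The keratin KRT17 was at 740, 110 and 171 CPM against 105, 104 and 73.9 (log2 fold change 1.59 ± 0.18, edgeR adjusted p = 2.42e-15), and 69 of its 98 UMIs in the members of control 1 came from 1 cell. In control 2 the highest cell held 9 of 12 KRT17 UMIs, and without it the level was 28.4 CPM, below that of the other cells. Leaving out control 1 gave KRT17 a log2 fold change of 0.81. The kallikrein protease KLK10 was at 249, 165 and 180 CPM against 79.6, 68.1 and 67.6, with a UMI in 63.2%, 29.4% and 53.9% of the members against 18.9% to 26.6% of the others. The metallothionein MT2A, which can share reads with its close relatives, was at 45.3, 64.0 and 230 CPM against 22.5 or less in each library of other cells, and did not pass without the LPS library (log2 fold change 1.35). The stress protein NUPR1 was at 272, 1180 and 169 CPM against 89.5, 280 and 129. Without the highest cell of each library NUPR1 was at 97.2, 764 and 129 CPM, so in control 1 and the LPS library the level was then close to that of the other cells. These genes and those in the paragraph before were named after their values were seen, apart from the 10 largest falls. Of the genes named from the fits, DESeq2 ended the calls of the falls ALCAM, LINC00261, REG4, ENDOG, SLITRK6, TFF3, HES6, NDRG1, GAPDH, ALB and SERPINA1. It also ended those of the rises UBE2L6, STAT2, IRF1, HLA-F, TAP2, CXCL8, MYD88, CDKN1A, GNRH2 and LY6D. Of the 126 genes that rose, 4 had most of their UMIs in 1 cell, CXCL8 among them, and the median gene had UMIs in 39.5 of the 112 members.

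Markers of other cell types and of the Caco-2 line are given as measured. Of 9 tested genes used to check the Caco-2 line, GNRH2 and TTR rose and ALB and SERPINA1 fell. Without the LPS library GNRH2 and TTR did not pass (log2 fold changes 0.25 and 0.90), and without either control SERPINA1 did not (-0.52 and -0.40). After removal of cells with high doublet scores neither GNRH2 nor TTR passed. Neither did so with 0.1% of UMIs on the 9 genes as the minimum. Summed over 10 genes, the Caco-2 list stood at 1962, 1582 and 2869 CPM in the HT29-like members against 2464, 1941 and 2184 in the other HT29-like cells. In control 1, 29 of the 31 GNRH2 UMIs and 38 of the 39 TTR UMIs of the members came from 1 cell. Of the 10 immune markers only CD68 was abundant enough to be tested, at 30.2, 36.6 and 39.7 CPM against 20.6, 26.4 and 25.6, and it did not pass. Summed, the immune list stood at 37.7, 54.9 and 43.9 CPM against 25.7, 31.1 and 28.9. None of the 2 stromal and endothelial, 9 enterocyte, 2 enteroendocrine, 3 stem cell and 6 epithelial genes tested passed. After removal of cells with high doublet scores 120 genes rose and 61 fell. Of the calls reported here, 115 of the 126 rises and 49 of the 62 falls were then kept. The part of free RNA was not tested.

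Among Caco-2-like cells the interferon-high members were too few for the planned test, since only the LPS library had 10 of them. Without that minimum, a choice made after the counts were seen, the same fit tested 13001 genes, of which 58 rose (0.446%) and 2 fell (0.0154%), ALB and KCNQ1OT1, the latter named after its value was seen. It rests on 6 members in control 1, 2 in control 2 and 14 in the LPS library. ISG15 was at 2794, 2120 and 3292 CPM in these members against 85.7, 77.5 and 74.8 in the other Caco-2-like cells (log2 fold change 4.44 ± 0.57, edgeR adjusted p = 9.96e-12). In control 1, 1 of the 6 members held 162 ISG15 UMIs, against 7 to 58 in each of the others. OAS3 was at 141, 386 and 143 CPM against 4.09, 4.87 and 5.43 (4.62 ± 0.49). IFI27 was at 1477, 771 and 1129 CPM against 66.8, 94.6 and 64.3 (3.37 ± 0.53). Of the 58 genes, 54 were also tested in HT29-like cells, and 37 of those rose there too, which is 68.5% of the 54 and 33.9% of the 109 HT29-like genes tested in both. Over all 10092 genes tested in both lines, 1.08% rose in HT29-like cells. Of the 37, 23 were genes of the lists, and the others included KRT17, KLK10 and LY6D. The test of a difference between the lines was not run, because the planned fit of Caco-2-like cells gave no value.

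Some Caco-2-like members held UMIs of genes more abundant in HT29-like cells. KRT17, KLK10 and LY6D, which are low in other Caco-2-like cells and were chosen after their values were seen, had UMIs in 8 of the 22 Caco-2-like members (36.4%), against 2.25% of the other Caco-2-like cells, 72.3% of the HT29-like members and 38.4% of the other HT29-like cells. By library the HT29-like members had 73.7%, 35.3% and 80.3% in control 1, control 2 and the LPS library. The other HT29-like cells had 47.9%, 36.5% and 32.2%, so the share was not higher in the members of control 2. There LY6D was lower in the HT29-like members (9.15 against 24.954 CPM), while KRT17 (110 against 104) and KLK10 (165 against 68.1) were higher. In the fit over all libraries these genes rose in the HT29-like members, LY6D not without the LPS library (log2 fold change 0.26). A wrong line call, RNA of both lines under 1 barcode and a rise within Caco-2 cells therefore cannot be told apart here. KLK10 was at 179, 0 and 47.5 CPM in the Caco-2-like members against 0.933, 1.79 and 1.76 in the other Caco-2-like cells. The 8 genes of the line rule had a UMI in 14 of the 22 (63.6%), against 28.6% of the other Caco-2-like cells. These were 5 of 6 members in control 1, 0 of 2 in control 2 and 9 of 14 in the LPS library. The members were deeper, with medians of 16045, 5188 and 5231 UMIs against 5486, 4272 and 3639. The Caco-2 list stood at 6266, 13011 and 11232 CPM in them, against 10797, 8753 and 8385 in the other Caco-2-like cells and 2464, 1941 and 2184 in the other HT29-like cells. None of the 22 was among the 6% of cells with the highest doublet score in its library. At its automatic threshold the score marked 0, 0 and 1 cells, so it does not show that none of the 22 was a doublet.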

How the data were processed

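The authors deposited 3 count matrices, 1 per library, holding UMIs of 33538 features in each barcode, made with Cell Ranger on GRCh38 and not normalized. The lowest barcode held 500, 500 and 501 UMIs in control 1, control 2 and the LPS library. The matrix headers name version 3.1.0, and the methods name another. All columns of counts belong to the 3 libraries, and no other per-sample column was present (0 unused). Cells were kept, called interferon-high and assigned to a line as described above. The members, gene lists and tests were chosen with earlier results of these data known. The lists are those counted above. Genes are named where they passed the test or define a list, with the 10 largest changes in each direction, and any others were chosen after their values were seen.

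Counts were summed per class, line and library, expressed as CPM and tested with edgeR 4.0.16 in R 4.3.3 (quasi-likelihood, TMM, filterByExpr with a minimum count of 10, Benjamini-Hochberg adjusted p under 0.05), where a library had 10 or more cells of both classes. The 9 genes of the rule and the 8 line genes were not tested. The replicates are 3 Transwells of 2 treatments. DESeq2 1.42.0 was the other tool. The fit was tested on simulated data. Scrublet (scanpy 1.11.5) marked 0, 0 and 1 cells as doublets at its automatic threshold, and none were removed, with removal of the 6% highest scores as an alternative. Other alternatives changed the minimum of UMIs, the cell filters, the comparison cells, the scaling, the low count filter and the libraries. Shares carry exact binomial intervals (95%, scipy 1.17.1), and floors are 3 counts. These cover counting error only. Gene positions are from GENCODE 44. Some genes of the lists are not reported here by name.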

Additional observations from a re-analysis of the deposited data

Results flagged for a closer look

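Barcodes outside the cell filters held a few more interferon-high profiles. Of 1678 barcodes of the LPS library that did not meet the minimums of UMIs and genes or the mitochondrial limit, 5 had 5 or more UMIs of the 9 genes (0.298%), 4 of them with over 20% mitochondrial UMIs. In the controls the same count was 0 of 718 in control 1 and 2 of 1188 in control 2. They were singled out because they lie outside the cells compared and the LPS count is above both controls. The exact intervals, 0.0968% to 0.694% for LPS and 0.0204% to 0.607% for control 2, overlap, and none of these barcodes entered a comparison.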

How the results depend on the processing

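The share of interferon-high cells depended on the minimum of UMIs. At 3 or more it was 1.32%, 0.980% and 2.50% in control 1, control 2 and the LPS library, and at 10 or more 0.216%, 0.170% and 0.969%, while the other 7 settings moved no share of all kept cells beyond its interval. Among Caco-2-like cells alone, 0.1% of UMIs gave 0.0233% in control 1, below its interval, and an LPS ratio of 6.01 in place of 3.53. Over all settings the LPS share of HT29-like cells was 2.10 to 5.22 times the control mean. Among genes of HT29-like cells, DESeq2 called 77 higher and 8 lower. The number of lower genes was 94 at 3 or more UMIs, 107 at 0.1% of UMIs, 40 against the 5 cells nearest in depth and 97 against cells with no UMI of the 9 genes, where 167 were higher. Leaving out 1 library gave 58 to 122 higher and 18 to 54 lower genes, the lowest without the LPS library (58 and 18), and 31 lower without control 2. The cause of these shifts was not tested. Leaving out a library also left fewer samples, and leaving out the LPS library removed 76 of the 112 HT29-like members. Of the 64 genes of the interferon lists that rose, 37 of 59 tested kept the call without the LPS library and 53 did with DESeq2. Of all 126 higher genes 56 and 77 kept it, and of the 62 lower genes 11 and 8, with 2 higher and 1 lower genes changing sign without the LPS library. Among the named genes that passed, the NDRG1 log2 fold change alone reversed, from -1.05 without control 1 to 0.0061 without the LPS library. TRIM56 (0.84 against the nearest cells) and AGR2 passed under some settings and not as reported. At 0.1% of UMIs 4 of the 6 tested goblet genes fell, against 2 as reported. For Caco-2-like cells, 3 or more UMIs gave 85 higher and 38 lower genes. No paired analysis of LPS against control was possible because control and LPS share 1 replicate number. HT29-like cells at 10 or more UMIs and the other settings for Caco-2-like cells were not run, since fewer than 2 libraries had 10 such cells, and the settings for the difference of the lines were not run because its main fit had no Caco-2-like fit to rest on. The adjusted p-values rest on a spread pooled over genes and 3 libraries, and the members are few in the controls, so a gene that did not pass is not shown to be unchanged. IRF9 and IFNLR1 rested on 5 and 4 UMIs in the members.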
